A study of Mus musculus with 6 samples.

Results

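The Snai, Zeb and Twist transcription factors, the classical cadherins Cdh1, Cdh2 and Cdh3 and the intermediate filament gene Vim were examined in mouse esophageal epithelium at embryonic day E12.5, with and without the transcription factor p63. These 10 genes, of 23284 in the deposited count table, were chosen by name as the factors and markers used to score epithelial against mesenchymal state, with their fold changes between these same libraries already known. Their values, folds and calls are therefore given as a description, with no p-value read from them. All 10 passed the filter on low counts that left 13849 genes for the fit.

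The study compared 3 p63KO libraries, from embryos homozygous for the Trp63-CreERT2 allele, with 3 libraries from control littermates. Trp63 is the gene of p63, and CreERT2 is a tamoxifen-inducible Cre recombinase. Controls are titled WT, with no allele stated. The labels do not say how many embryos made up a library, so p-values measure only the spread between these libraries, which may be technical. Epithelium was separated from the esophagus before RNA purification, and libraries were read for 100 bases.

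Classical cadherins are transmembrane proteins that bind the same cadherin on the next cell and are tied to actin by catenins. Cdh1 (E-cadherin) and Cdh3 (P-cadherin) are made by epithelia, Cdh3 mainly in basal layers, while Cdh2 (N-cadherin) is typical of mesenchyme and neural tissue. Snai and Zeb factors are zinc finger repressors that bind E-box motifs and can silence Cdh1. Twist factors are basic helix-loop-helix proteins of mesoderm and neural crest. A rise of these factors with loss of Cdh1 and gain of Cdh2 and Vim defines the textbook epithelial-to-mesenchymal transition.

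Total counts lay between 13335328 and 20093838 per library, so 3 counts were worth 0.153 to 0.223 CPM (counts scaled to sequencing depth with TMM factors, which even out library composition). Trp63 averaged 603 ± 63.9 CPM over controls against 71.4 ± 8.03 CPM over p63KO libraries (SD, n = 3 per group), and every library matched its label. Epithelial RNA was present in both groups, with Epcam, an epithelial adhesion molecule, at 851 ± 6.61 CPM in control and 947 ± 5.13 CPM in p63KO. This does not show that other cells were absent, and Vim was at 155 ± 21.3 CPM in control and 142 ± 8.65 CPM in p63KO. The second principal component (8.53% of variance) separated control replicate 3 from the rest.

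Snai2 and Zeb2 fell steeply while Twist1 and Snai1 rose. Of the 10 genes, 4 fell (Snai2, Zeb2, Cdh3 and Cdh1), 3 rose (Twist1, Snai1 and Cdh2) and 3 did not pass the threshold (Zeb1, Twist2 and Vim), a call being an adjusted p under 0.05 over all genes tested. Over all genes tested, 29.6% were called, 15.3% as higher and 14.3% as lower in p63KO. The control and p63KO libraries did not overlap for 8 of the 10 genes, against 44.1% of all genes tested. The median log2 fold change of the 10 genes was -0.42 and that of all genes tested was -0.01. The number that rose was 1 without control replicate 1, control replicate 2 or p63KO replicate 1, while 4 fell in each fit with 1 library left out. In those fits calls over all genes also dropped, from 4098 to between 3150 and 3771. Rises over all genes were 1786 without control replicate 1, 1787 without control replicate 2 and 1734 without p63KO replicate 1, against 2113 with all libraries. In bulk RNA, fewer cells of a type and less RNA per cell cannot be told apart.

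**Figure D1:**
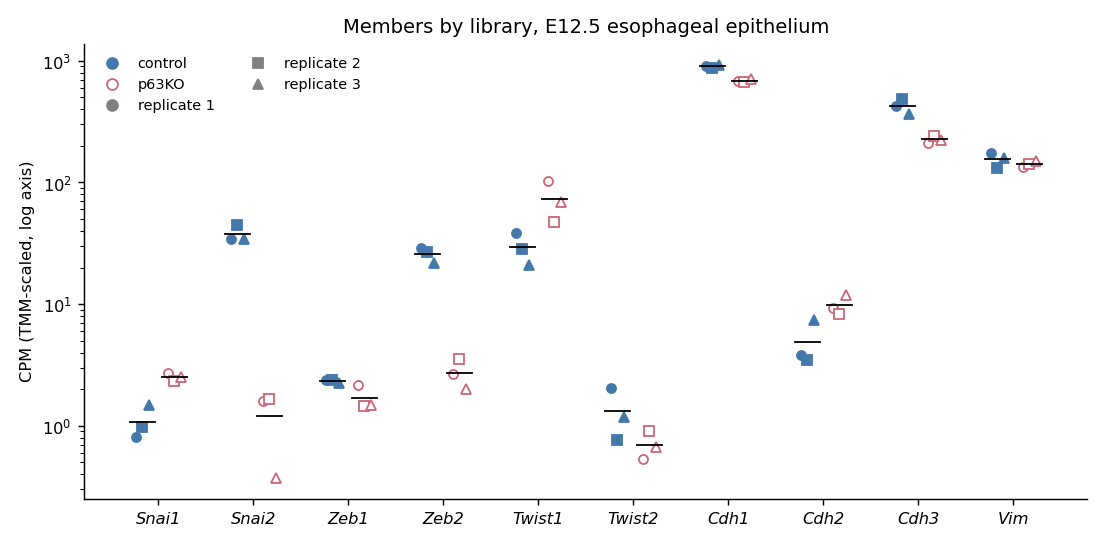
Level of each of the 10 genes in every library, in TMM-scaled CPM on a log axis; filled blue marks are control, open red marks p63KO, mark shapes the replicates, and black lines the means of 3 libraries. Snai2 and Zeb2 sit far lower in p63KO, Twist1, Snai1 and Cdh2 sit higher, and Vim and Twist2 overlap between groups.

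Snai2 (Slug), a zinc finger repressor of neural crest and of basal keratinocytes, showed the deepest fall. Control replicates 1 to 3 held 637, 875 and 587 counts, and the p63KO replicates, in the same order, 27, 24 and 5. These were 34.2, 44.7 and 34.6 CPM in control and 1.59, 1.66 and 0.371 CPM in p63KO. The highest p63KO library was far under the lowest control library, and p63KO replicate 3 was lowest of all. With a log2 fold change of -4.93 (SE 0.32), 3.29% of the control level remained.

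Snai1 (Snail), the paralog first known as a repressor of Cdh1, moved the other way from a low level. It had 15, 19 and 25 counts in the control libraries and 46, 34 and 34 in the p63KO libraries. These were 0.806, 0.97 and 1.47 CPM in control against 2.71, 2.35 and 2.52 CPM in p63KO, so the groups did not overlap. The log2 fold change was 1.23 (SE 0.31). Leaving out control replicate 1, control replicate 2 or p63KO replicate 1 ended this call, and there the log2 fold change was 1.05, 1.15 and 1.17.

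For every 100 counts of Snai2 there were 2.35, 2.17 and 4.26 counts of Snai1 in the control libraries. In the p63KO libraries there were 170, 142 and 680. Snai2 thus outnumbered its paralog in each control library, and Snai1 outnumbered Snai2 in each p63KO library. A ratio within 1 library does not depend on scaling between libraries, and the smallest two-sided exact permutation p for 3 against 3 is 0.1, so none of the ratios was tested. The other Snai gene, Snai3, was at 3.71 ± 0.833 CPM in control and 4.24 ± 0.796 CPM in p63KO and did not pass the threshold.

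Zeb2, a large zinc finger and homeodomain repressor with roles in neural crest and in E-cadherin silencing, also fell steeply. It had 544, 526 and 366 counts in control and 45, 51 and 27 in p63KO, or 29.2, 26.9 and 21.6 CPM against 2.66, 3.53 and 2.01 CPM. The groups lay well apart. Its log2 fold change of -3.24 (SE 0.21) corresponds to 10.6% of the control level. Annotated genes on the opposite strand overlap exons of Zeb2 (Zeb2os and Gm27761), and likewise of Zeb1 (Gm10125) and Twist2 (Gm29100). Without a stated strand setting, reads of such overlapping genes cannot be separated.

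Zeb1, the paralog of Zeb2, was low in both groups. It had 44, 47 and 38 counts in control and 37, 21 and 20 in p63KO, or 2.36, 2.4 and 2.24 CPM against 2.18, 1.45 and 1.49 CPM. The control libraries were close together, and p63KO replicate 1 lay just under them. The log2 fold change of -0.44 (SE 0.27) did not pass the threshold. Control libraries held 1236, 1119 and 963 counts of Zeb2 for every 100 of Zeb1, and p63KO libraries held 122, 243 and 135.

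Twist1, which is needed for cranial mesenchyme and limb mesoderm, was the most abundant of the 6 factors per kilobase in p63KO. It had 713, 554 and 359 counts in control and 1746, 680 and 939 in p63KO, or 38.3, 28.3 and 21.1 CPM against 103, 47.1 and 69.7 CPM. The groups did not overlap, and p63KO replicate 1 was well above the other p63KO libraries. Its log2 fold change was 1.33 (SE 0.28) and lay between 1.0 and 1.59 with 1 library left out. The call held in each of those fits but not with robust dispersions, an edgeR setting that allows for genes of unusual spread.

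Twist2, the paralog also called Dermo1, had 38, 15 and 20 counts in control and 9, 13 and 9 in p63KO. These were 2.04, 0.766 and 1.18 CPM against 0.531, 0.9 and 0.668 CPM. The groups overlapped, control replicate 1 being highest, and the log2 fold change of -0.92 (SE 0.45) did not pass the threshold. At this depth a difference of that size was within the spread of the libraries.

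**Figure D2:**
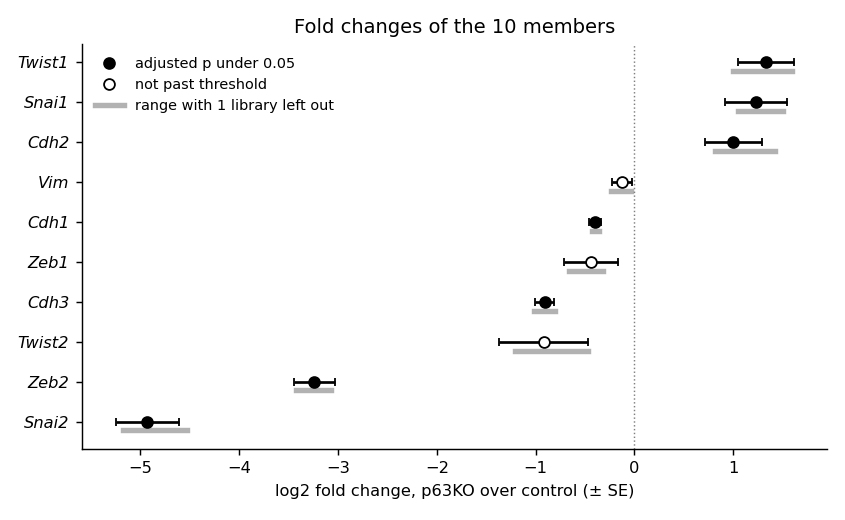
Log2 fold change of each gene, p63KO over control, with its standard error; filled points passed an adjusted p of 0.05 over all genes tested and open points did not, and grey bars give the range with 1 library left out. The values run from -4.93 for Snai2 to 1.33 for Twist1, and no grey bar crosses 0.

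Promoter sequences were searched for an E-box, as a description of the genes. The motif searched was CAGGTG on either strand, which reads CACCTG on the other, the E-box form bound by Snai and Zeb zinc fingers. Of the 10 genes, Snai1, Zeb2, Twist1, Twist2 and Vim matched by symbol in a RefSeq promoter table of build GRCm38.p6, which differs from the mm9 build of the counts. Among their 8 annotated starts, the motif stood in the 250 bases before the start of Snai1 only, against 17.2% of 32851 promoters of that length. The 150 bases just before a start are shown for 1 factor that fell and the 2 that rose among these, 5′ to 3′ on the gene's strand, with the motif in capitals (RefSeq, GRCm38.p6):

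Snai1 (chr2:167538045-167538194, plus strand): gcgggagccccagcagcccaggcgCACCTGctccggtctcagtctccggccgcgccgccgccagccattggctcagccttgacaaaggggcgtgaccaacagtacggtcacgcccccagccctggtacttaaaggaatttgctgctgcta

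Twist1 (chr12:33957521-33957670, plus strand): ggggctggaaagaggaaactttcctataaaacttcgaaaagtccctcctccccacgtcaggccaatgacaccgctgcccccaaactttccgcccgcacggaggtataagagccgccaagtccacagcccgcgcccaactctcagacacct

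Zeb2, farthest upstream of its 4 starts (chr2:45117443-45117592, minus strand): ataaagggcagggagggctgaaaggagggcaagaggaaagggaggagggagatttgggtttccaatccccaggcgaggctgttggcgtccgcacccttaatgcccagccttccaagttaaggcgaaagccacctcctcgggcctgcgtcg

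In the Snai1 promoter the motif began 126 bases before the start. No occurrence in these windows says only that the letters are absent there, and binding was not measured.

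Among the 6 factors, the share per kilobase of Twist1 was higher in every p63KO library than in any control library. The shares per kilobase of Snai2, Zeb2 and Zeb1 were lower in every p63KO library. Per kilobase of annotated coding-transcript exon, Snai2 made up 38, 51.3 and 50.8% of their counts in control and 1.19, 2.57 and 0.406% in p63KO. Twist1 made up 52.8, 40.3 and 38.6% in control and 95.1, 90.3 and 94.7% in p63KO. Zeb2 went from 5.59 ± 0.142% to 0.567 ± 0.344% and Snai1 from 1.73 ± 0.847% to 3.50 ± 1.01% (SD, n = 3 each). The Snai1 shares overlapped between groups (1.12, 1.39 and 2.7% against 2.52, 4.53 and 3.44%), as did those of Twist2. Zeb1 and Snai1 depended on the scale. Without division by length, the Zeb1 shares overlapped (2.21, 2.31 and 2.72% against 1.94, 2.55 and 1.93%). The Snai1 shares then did not (0.753, 0.933 and 1.79% against 2.41, 4.13 and 3.29%). Summed over the 6 genes, control libraries had 97.7 ± 13.5 CPM and p63KO libraries 82.2 ± 28.2 CPM, and these ranges overlapped. Their total in CPM was thus within the spread between libraries. In each p63KO library Twist1 made up at least 82.6% of their counts without division by length, and at least 90.3% of their counts per kilobase.

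**Figure D3:**
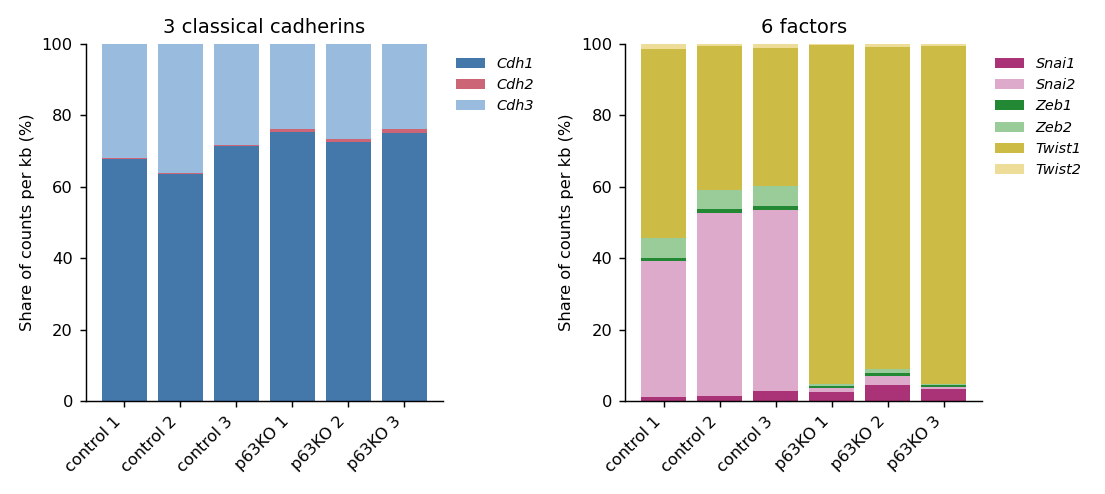
Share of each gene in the summed counts per kilobase of the 3 classical cadherins (left) and of the 6 factors (right), in percent, for every library. Cdh1 stays the main cadherin in all libraries, and Twist1 rises from between 38.6 and 52.8% of the factors in control to between 90.3 and 95.1% in p63KO.

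Cdh1, the main cadherin of simple and stratified epithelia, fell by a small and even amount. It was 912, 873 and 929 CPM in control and 679, 664 and 709 CPM in p63KO. Libraries of a group were within a few percent of each other and the groups did not overlap. The log2 fold change was -0.40 (SE 0.06), so 75.6% of the control level remained. Cdh1 was the most abundant of the 10 genes per kilobase in both groups.

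Cdh3, the cadherin of basal epithelial cells, fell further. It was 424, 489 and 363 CPM in control and 212, 242 and 224 CPM in p63KO. Control replicate 2 was highest, and all p63KO libraries lay under all control libraries. At a log2 fold change of -0.91 (SE 0.10), 53.1% remained. There were 46.4, 56 and 39.1 counts of Cdh3 for every 100 of Cdh1 in control and 31.2, 36.4 and 31.5 in p63KO. The 2 genes lie on the same strand of chromosome 8, Cdh3 upstream of Cdh1 with 46.1 kb between them (GENCODE M21, build GRCm38).

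Cdh2, the cadherin of neural and mesenchymal cells, rose from a low level. It had 71, 68 and 125 counts in control and 156, 120 and 159 in p63KO, or 3.81, 3.47 and 7.36 CPM against 9.21, 8.31 and 11.8 CPM. The groups did not overlap, but control replicate 3 came close to the lowest p63KO library. Its mean level was 2.01 times that of control, a log2 fold change of 1.0 (SE 0.29). The latter was 1.42 without control replicate 3, and the call was lost without control replicate 1, control replicate 2, p63KO replicate 1 or p63KO replicate 3. Even in p63KO, Cdh2 gave 1.36, 1.25 and 1.67 counts for every 100 of Cdh1, against 0.418, 0.398 and 0.793 in control.

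Vim, the intermediate filament protein of mesenchymal and many migrating cells, was 175, 132 and 158 CPM in control and 133, 141 and 150 CPM in p63KO. The groups overlapped, and the log2 fold change of -0.13 (SE 0.10) did not pass the threshold. Vim gave 19.2, 15.2 and 17 counts for every 100 of Cdh1 in control and 19.6, 21.3 and 21.2 in p63KO, a small shift that includes the fall of Cdh1.

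Levels were ordered per kilobase of coding-transcript exon (GENCODE M21, not the annotation behind the counts). In control the order was Cdh1, Cdh3, Vim, Snai2, Twist1, Zeb2, Cdh2, Snai1, Twist2 and Zeb1, from 204 ± 6.39 CPM per kb down to 0.402 ± 0.0147 CPM per kb. The ranges of neighbours overlapped for Snai2 with Twist1, Cdh2 with Snai1, Snai1 with Twist2, and Twist2 with Zeb1. In p63KO the order was Cdh1, Vim, Cdh3, Twist1, Cdh2, Snai1, Snai2, Zeb1, Zeb2 and Twist2, from 154 ± 5.18 to 0.221 ± 0.0588 CPM per kb. Here the ranges overlapped for Cdh3 with Twist1 and for each neighbouring pair from Snai2 down. Snai2 moved from the fourth to the seventh place, and Twist1 at 45 ± 17.3 CPM per kb reached the range of Cdh3 at 51.5 ± 3.45.

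Across the 6 libraries, the genes most like Cdh1 in centred log2 CPM were Gss (Euclidean distance 0.0685), a glutathione synthesis enzyme, Mapkap1 (0.0815), a subunit of mTOR complex 2, and Psap (0.0822), the precursor of lysosomal saposins. The median distance over 9404 genes was 0.561. Those most like Vim were Siae (0.111), Slc25a36 (0.121) and Pramef8 (0.122), with a median of 0.466.

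Other cadherins of the type I, type II and related groups were called in both directions. Of 17 listed genes, 10 were tested, of which 4 fell, 1 rose and 5 did not pass. The median log2 fold change was -0.69 against -0.01 over all genes tested, and 50% were called against 29.6%. Cdh11, a cadherin of mesenchyme and the most abundant of the list, was 325, 218 and 271 CPM in control and 165, 153 and 161 CPM in p63KO. It fell by 0.76 (SE 0.12) on the log2 scale. Cdh8 fell by 2.38 (SE 0.43) and Cdh4 (R-cadherin) by 0.63 (SE 0.15) on the log2 scale. Cdh6, with 62 counts over controls and 12 over p63KO libraries, also fell (-2.06, SE 0.52), a call that ended when control replicate 1, p63KO replicate 2 or p63KO replicate 3 was left out. Cdh20 was the gene that rose, with 1 count summed over controls and 45 over p63KO libraries. Scaled for depth the ratio was 55.4 (exact 95% interval 9.44 to 2235, for counting error only). Cdh20 passed the filter only through p63KO and Cdh6 only through control, so these calls and the list's median are a description. Cdh12 was the converse of Cdh20, with 36 counts over controls and 2 over p63KO libraries, a ratio of 14.6 for control over p63KO (3.77 to 125). It missed the filter with all libraries, and was called in each of the 4 fits with 1 library left out that tested it. There Cdh12 passed the filter only through control, so these calls too are a description.

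Genes that join cadherins to the cytoskeleton, and the nectins beside them, were split. Among the 20 tested there were 7 falls, 4 rises and 9 genes that did not pass, and the median was 0.05. Calls made up 55%, against 29.6% of all genes tested. Pvrl1 (nectin-1) was 178, 184 and 159 CPM in control and 44.3, 44.9 and 38.1 CPM in p63KO. It fell by 2.03 (SE 0.09) on the log2 scale. Jup (plakoglobin), a catenin shared with desmosomes, fell by 0.73 (SE 0.08) on the log2 scale. Pvrl4, Plekha7, Camsap3 and Pvrl3 also fell. Pvrl3 (-0.34) lost its call when replicate 1 or 3 of either group was left out. Ctnnb1 (beta-catenin), the most abundant, went from 4274 ± 492 to 3571 ± 87.7 CPM (log2 fold change -0.26, SE 0.08), a call kept only without control replicate 3 among the fits with 1 library left out.

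Ctnna2, the alpha-catenin of neurons, was the strongest rise among these partners (2.36, SE 0.28), from 1.22 to 6.27 CPM, with Shroom3 (0.45), Lima1 (0.27) and Vcl (0.20). The Vcl call was kept only without p63KO replicate 2. Lima1 lost its call without control replicate 2 or p63KO replicate 3, and 2 partners rose without p63KO replicate 3. The common catenin genes Ctnna1 (0.13, SE 0.06) and Ctnnd1 (0.01, SE 0.07) did not pass.

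Partners and corepressors of the factors were called about as often as genes in general. Of 28 tested, 5 rose, 3 fell and 20 did not pass, so 28.6% were called against 29.6% of all genes tested, with a median of -0.03. Jub (Ajuba), a LIM protein that works with Snai factors, fell by 1.29 (SE 0.09) on the log2 scale, with 340 ± 26.6 CPM in control against 139 ± 14.8 CPM. Id4, an inhibitor of basic helix-loop-helix dimers, rose from 13.9 ± 2.81 to 53.4 ± 5.96 CPM (1.95, SE 0.15), and Id1 rose by 0.70 (SE 0.11). Scrib and Limd1 fell (-0.40 and -0.26), the Limd1 call being kept only without control replicate 1.

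Smarca4, the chromatin remodeller that was the most abundant partner (0.07, SE 0.06), did not pass, nor did the E protein genes Tcf3, Tcf4 and Tcf12, whose products pair with Twist factors, at -0.05, -0.12 and -0.02. Leaving out control replicate 1 or p63KO replicate 3 gave 2 partners that rose, and leaving out control replicate 3, p63KO replicate 1 or p63KO replicate 2 gave 3.

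Epithelial genes that these factors oppose rose more often than they fell. Of 31 tested besides Cdh1, 13 rose, 4 fell and 14 did not pass, with a median of 0.21. The share called was 54.8%, against 29.6% of all genes tested, in a list chosen with earlier results known. Marveld3, a tight junction protein, rose by 1.17 (SE 0.11) on the log2 scale, with 14.3 ± 1.49 CPM in control against 32.3 ± 0.915 CPM, and the simple epithelial keratins Krt18 (0.68, SE 0.13) and Krt8 (0.44, SE 0.09) rose with it. Ovol1 (-1.22, SE 0.16), Cldn4 (-0.43, SE 0.07) and Grhl2 (-0.28, SE 0.08) were among those that fell. The Grhl2 call was kept only without control replicate 3 among the fits with 1 library left out. Epcam (0.15, SE 0.05), the most abundant, and the splicing factor Esrp1 (-0.18, SE 0.06) did not pass.

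Genes of the mesenchymal programme fell more often than they rose. Of 32 tested besides Vim and Cdh2, 17 fell, 4 rose and 11 did not pass, with a median of -1.03. In this list 65.6% were called, against 29.6% of all genes tested. Axl, a receptor tyrosine kinase, was 274, 274 and 244 CPM in control and 39.7, 40.2 and 33.5 CPM in p63KO. Its log2 fold change was -2.80 (SE 0.09). Dcn (decorin), the most abundant, rose from 159 ± 49.1 to 1223 ± 151 CPM (2.94, SE 0.20), Fn1 (fibronectin) rose by 1.28 (SE 0.21), and Ctgf and Itgb3 rose by 0.89 and 0.91. The Itgb3 call was lost with any library left out, and the Ctgf call without p63KO replicate 1 or 3. Without control replicate 1, 9 genes fell, and leaving out control replicate 3 or p63KO replicate 3 gave 11. With robust dispersions 10 fell, and 2 rose without p63KO replicate 1 or 3.

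**Figure D4:**
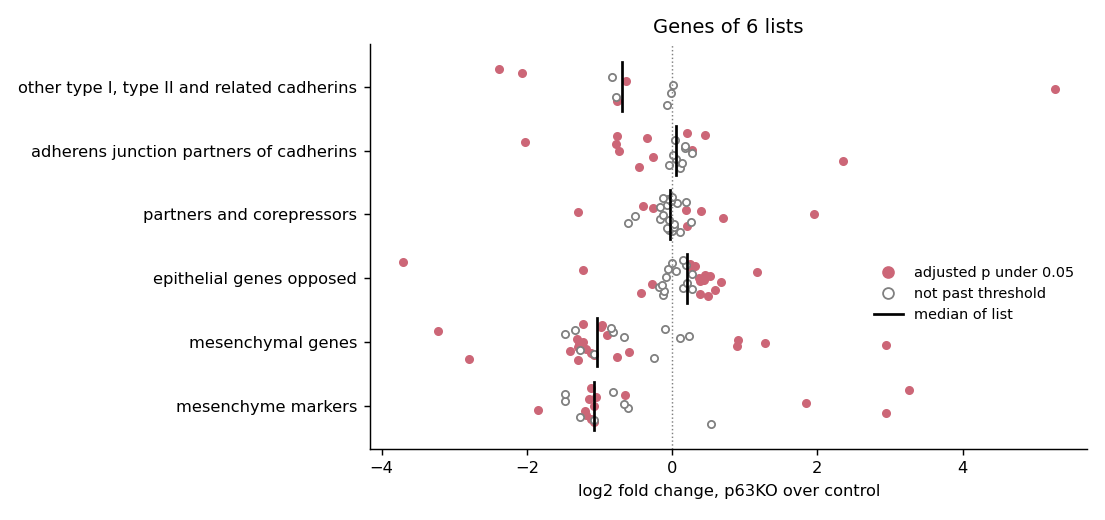
Log2 fold change, p63KO over control, of the tested genes of 6 lists; filled points passed an adjusted p of 0.05 over all genes tested, open points did not, and black lines are list medians. The mesenchymal lists sit lowest, with medians of -1.03 and -1.08, and the epithelial genes have a median of 0.21; the point at the far right is Cdh20, which had 1 count in control and whose fitted fold is not a bound.

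Markers of other cell types were set beside these values. Of 21 tested mesenchyme markers, which share 9 genes with the mesenchymal programme, 10 fell, 3 rose and 8 did not pass. This made 61.9% called, against 29.6% of all genes tested. Leaving out control replicate 1 gave 3 that fell, and leaving out p63KO replicate 3 gave 5, with 3 rising in both fits. The rises were Tbx18, a T-box factor, from 6.51 ± 1.43 to 62.6 ± 5.89 CPM (log2 fold change 3.26, SE 0.15), Dcn, and Meox1 (1.85, SE 0.35). The 25 markers summed to between 490 and 615 CPM in control and between 1317 and 1675 CPM in p63KO, and without Dcn to 463, 279 and 461 CPM in control and 332, 264 and 165 CPM in p63KO. No listed mesenchyme marker was at 0 in all libraries. Twist1 was higher in every p63KO library than in any control library, as was the sum with Dcn, while the sum without Dcn did not rise. In p63KO, replicate 1 was the highest library for Twist1 and for the sum without Dcn. Replicates 2 and 3 differed in order, with 47.1 and 69.7 CPM of Twist1 against sums of 264 and 165 CPM. Control replicate 3, where this sum was 461 CPM, had the lowest Twist1 level, 21.1 CPM. The part of mesenchymal cells in the values of the 6 factors, Cdh2, Cdh11 and Vim, including the falls of Snai2 and Zeb2, was not tested.

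**Figure D5:**
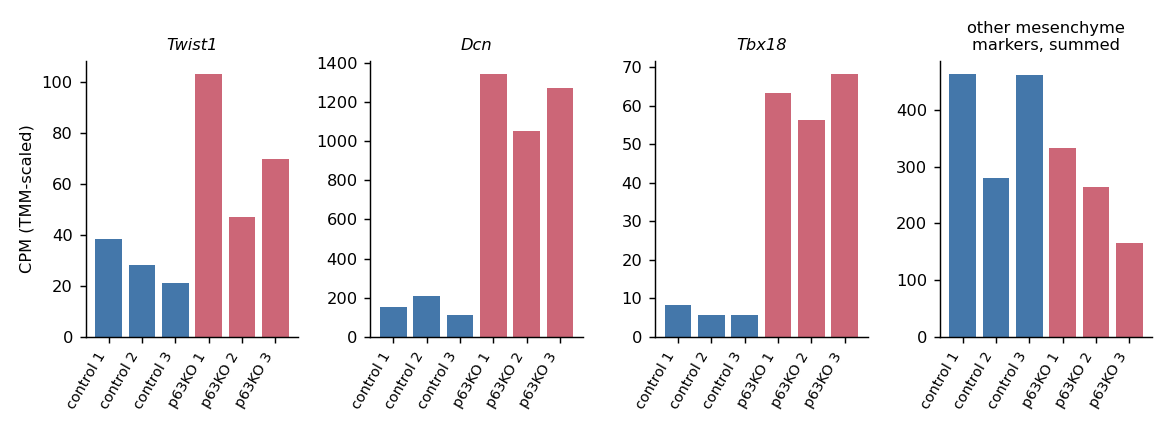
Level in every library of Twist1, Dcn, Tbx18 and the sum of the 24 mesenchyme markers other than Dcn, in TMM-scaled CPM with bars from 0 (blue, control; red, p63KO). Twist1, Dcn and Tbx18 are higher in all p63KO libraries, while the sum is 463, 279 and 461 CPM in control and 332, 264 and 165 CPM in p63KO.

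Of 18 tested neuronal and neural crest markers, 9 rose, 3 fell and 6 did not pass. Among the 18, 5 had a mean under 10 counts in 1 group, so that they passed the filter through the other. The 66.7% called, against 29.6% of all genes tested, is therefore a description. Insm1, an endocrine and neuronal zinc finger factor, rose by 7.65 (SE 0.20) and Elavl3, a neuronal RNA-binding protein, by 5.85 (SE 0.15) on the log2 scale. Th, the tyrosine hydroxylase gene, Gfra1, a GDNF receptor, and Ednrb, the endothelin receptor gene of enteric neural crest, fell by 6.83, 1.86 and 1.25. The Ednrb call was likewise lost when replicate 1 or 3 of either group was left out. The neural crest factor Sox10 was at 3.26 CPM in control and 1.26 CPM in p63KO and did not pass. The list summed to between 224 and 274 CPM in control and between 798 and 923 CPM in p63KO, with none at 0 in all libraries. The sum was higher in p63KO, as were Cdh2 and Ctnna2, while Th, Gfra1 and Ednrb were lower. The part of neural or neural crest cells in the values of Snai2, Zeb2, Twist1, Cdh2 and Ctnna2 was not tested.

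Of 11 tested endothelial and blood markers, 0 passed the edgeR quasi-likelihood test, with 0 at an unadjusted p under 0.05. DESeq2 called 0 and limma-voom 0. Without control replicate 3, the edgeR fit called 2 of the 11 as higher in p63KO. The list summed to between 18.4 and 61.4 CPM in control, highest in control replicate 3, and between 27 and 44.8 CPM in p63KO. Hba-a1 was at 0 in all libraries. Of 13 esophageal epithelium markers, 5 rose, 3 fell and 5 did not pass, so 61.5% were called against 29.6% of all genes tested. Without control replicate 3, 5 fell. The 3 falls with all libraries, against the direction of most calls, were Trp63 and the basal keratins Krt5 (log2 fold change -5.05, SE 0.37) and Krt15 (-2.50, SE 0.22). This list summed to between 5465 and 6287 CPM in control and between 4643 and 4786 CPM in p63KO, so the sum was lower although more markers rose. The foregut factor Sox2 was at 644 and 582 CPM and did not pass.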

How the data were processed

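RNA was measured by sequencing in 3 control and 3 p63KO libraries. The authors deposited a table of raw counts by gene symbol. TopHat2 2.1.0, bcl2fastq 1.8.4, DESeq2 and build mm9 are named, per the submitters' processing notes. The counter, its annotation, its strand setting and the read layout are not given in these sources. Columns were matched to samples through the sample descriptions.

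Counts were fitted in R 4.3.3 with edgeR 4.0.16: filterByExpr (minimum count 10, total 15), TMM scaling, and a quasi-likelihood test of group, with no covariate, over 13849 genes, with Benjamini-Hochberg adjustment. SE is the log2 fold change divided by the square root of F. The fit was tested on simulated data, where it called only part of the smaller changes, so a gene that did not pass may still differ. The 10 genes and the 9 lists were chosen with earlier results of these data known. Named list genes were the 2 of lowest p, the most abundant, and up to 3 called against the list's main direction; others were chosen after their values were seen. Likeness used log2(CPM + 1) and genes of at least 10 CPM. Alternatives were DESeq2 1.42.0, limma-voom 3.58.1, 2 other scalings, 2 other filters, robust dispersions, a block for replicate number, and each library left out. Leaving out libraries for the ratios was chosen after seeing the data and moved no direction. The values of 1 gene that the rule names are not reported here.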

Additional observations from a re-analysis of the deposited data

How the results depend on the processing

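All 10 genes kept the direction of their fold change under each of the 8 other settings that tested them and with each library left out. Of these values, 1 of 79 from the other settings and 7 of 60 with a library left out no longer passed the threshold. Both totals include Zeb1, Twist2 and Vim, which had no call to lose. The 7 losses were of Snai1, which kept its call in 3 of 6 fits, and Cdh2, which kept it in 2 of 6. With robust dispersions Twist1 had an edgeR adjusted p of 0.065 at a log2 fold change of 1.33. Twist2 was not tested with a filter of 1 CPM in 3 libraries. With 1 library left out, between 1 and 3 of the 10 genes rose and 4 fell in each fit. For the lists, the ranges with 1 library left out were 1 rising and 3 to 5 falling other cadherins, 2 to 4 rising and 5 to 6 falling junction partners, 2 to 4 rising and 2 to 3 falling factor partners, 10 to 16 rising and 3 to 4 falling epithelial genes, and 2 to 4 rising and 9 to 19 falling mesenchymal genes. Without a filter, 2 other cadherins and 3 factor partners rose, and with the 1 CPM filter, which tests fewer genes, 0 other cadherins rose. With robust dispersions 10 mesenchymal genes fell. Other scalings shifted the median of all genes by at most 0.02 on the log2 scale. With the replicate number as a block (replicate block), 3 of the 10 genes rose and 4 fell, as without it, while calls over all genes went from 4098 to 4778. Same-numbered libraries correlated in their deviations from the group means at 0.173, 0.264 and 0.0346, and differently numbered ones between -0.229 and 0.0563. Replicates 1 and 2 thus correlated most with their own number, while control replicate 3 correlated slightly more with p63KO replicate 1. The labels state no pairing, so the main fit used none, and whether the numbers pair the samples was not tested. Depth limits Snai1, Zeb1 and Twist2, which had under 50 counts in every library.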
